A study of Populus davidiana with 6 samples.

Results

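The genes described here are the most abundant annotated genes of aspen leaves, 175 of the 40537 gene identifiers in the deposited tables. A gene was taken when at least 1 of its transcripts was marked as annotated, when it spanned at least 300 bp of the genome, and when its mean over the 3 control libraries was at least 500 FPKM. FPKM counts sequenced fragments relative to transcript length and to library size and is thus a level per length, so levels of different genes can be set side by side. Transcripts of 1 gene were summed. The 175 genes were 0.470% of the 37264 annotated genes of that span. Their control levels chose them, so those levels are given as a description. The air-dried libraries played no part in the choice.

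The leaves came from Populus davidiana, an Asian aspen grown here as seedlings of a drought-tolerant cultivar, Odae19, by the labels. All 6 libraries come from this cultivar, from plants about 6 weeks old that had been multiplied in vitro from stem internodes on a gelled sugar medium with the auxin naphthalene acetic acid. The air-dried group, 3 libraries, came from plants taken out of the medium, rinsed with sterile water and then kept in the open for about 10 min. The control group also has 3 libraries, and whether its plants were taken out and washed is not stated, so uprooting, washing and drying cannot be told apart. Nothing states that the libraries of a group came from separate plants, so p-values measure the spread between these libraries, which may be technical. A series title naming drought stress gives the question: which transcripts differ after the drying.

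In a green leaf a small number of nuclear genes usually supplies much of the messenger RNA. Genes for the small subunit of Rubisco, the enzyme that fixes carbon dioxide, and for the light-harvesting proteins that hold chlorophyll in the thylakoid membrane are the known examples, and many of them form families of near-identical copies. Metallothioneins, which bind metal ions, and genes for ribosomal proteins are also commonly abundant. The tables give no gene names (0 filled entries), so which of the 175 genes belong to these families is not known here, and leaf marker genes could not be looked up. The genes are therefore called by their rank in control level, with their position as the tables give it, in a genome build not given in the sources used here. Copies of 1 family that share reads could not be recognised either.

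The libraries did not sort by treatment in these genes, which bears on every result that follows. Control 3 and air-dried 2 and 3 resembled each other, and controls 1 and 2 resembled air-dried 1. Over the 175 genes the log2 values of control 3 correlated at r = 0.981 with air-dried 2 and 0.961 with air-dried 3, against 0.852 with control 1 and 0.900 with control 2. Air-dried 1 correlated at 0.959 with control 1, against 0.837 with air-dried 2 and 0.885 with air-dried 3. These values are across genes of shared libraries and are a description. Over all tested genes the corresponding values for control 3 were 0.943, 0.941, 0.936 and 0.935. Air-dried 1 there correlated at 0.930 with control 1 and 0.923 with control 2, against 0.933 with air-dried 2 and 0.938 with air-dried 3. Over all tested genes air-dried 1 was thus slightly nearer its own group, unlike in the 175 genes. The summed FPKM of all genes ran from 1711808 in air-dried 3 to 4180878 in air-dried 2, and transcripts spanning at most 150 bp took 38.6% to 77.2% of it. Neither range follows the treatment. Absolute sequencing depth is unknown, since FPKM carries no counts.

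What share of the leaf signal the 175 genes held depended on what it was taken of. Of the FPKM of all genes spanning at least 300 bp they took 31.9%, 30.5% and 29.9% in controls 1, 2 and 3. In air-dried 1, 2 and 3 they took 29.3%, 26.9% and 25.7%. By this measure the air-dried shares all lay under the control shares. The groups overlapped on other bases. Of annotated genes of that span alone, the shares were 36.8%, 35.4% and 32.4% in the controls and 34.7%, 31.6% and 30.9% after drying. Of all FPKM, very short loci included, they were 16.4%, 7.73% and 7.82% and then 17.1%, 5.97% and 14.9%. A choice of genes on high control values favours lower air-dried shares, so the first sum was repeated for the 178 genes that reach 500 FPKM in the air-dried mean. Those genes took 31.9%, 30.5% and 30.1% in the controls and 29.4%, 27.1% and 26.0% after drying, and the groups were again separate. But 168 of the 178 were also among the 175, so the repeat could differ little from the first sum. The effect of the choice was therefore not tested by it. FPKM gives shares of a library, and in bulk leaves fewer cells of a type and less RNA per cell cannot be told apart.

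Signal was concentrated further within the list. Of the list's FPKM, the 10 highest genes held 22.9%, 23.0% and 20.5% in controls 1, 2 and 3. After drying they held 22.0%, 19.9% and 18.5%. These 10 were ranked on the control mean, which favours lower shares after drying. The share in control 3 lay under that in air-dried 1, so the groups overlapped. Between 34 and 38 genes made up 50% of the list in each library. By control mean, 82 genes lay between 500 and 1000 FPKM, 45 between 1000 and 2000, 40 between 2000 and 5000, and 8 at 5000 or more. The median gene stood at 1166, 1098 and 892 FPKM in the controls and at 1067, 884 and 906 FPKM after drying.

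**Figure D1:**
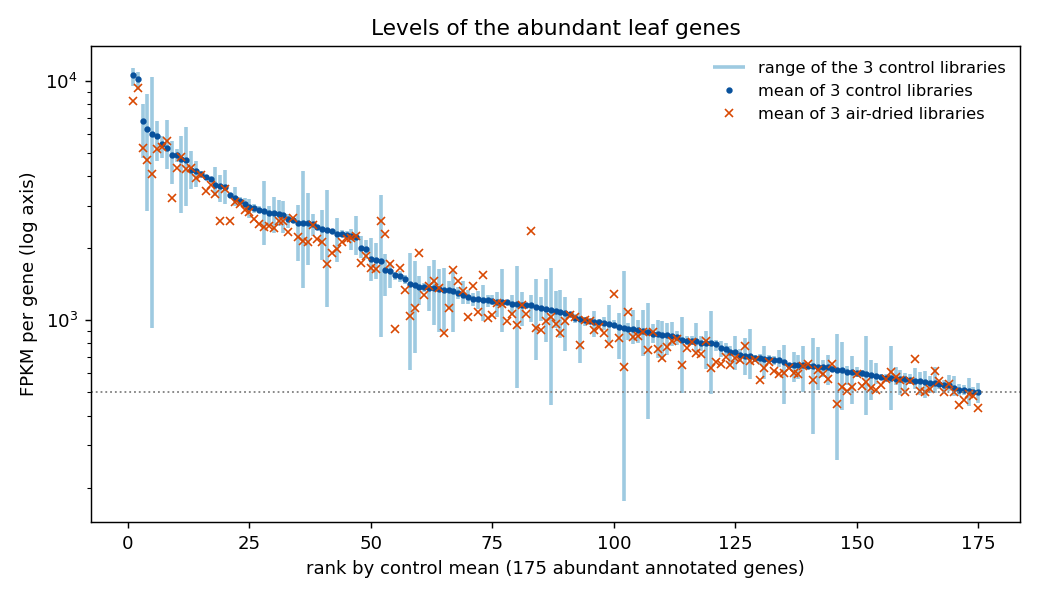
FPKM per gene on a log axis against rank by control mean for the 175 genes, with the control mean (dots), the range of the 3 control libraries (bars) and the air-dried mean (crosses); the dotted line marks 500 FPKM. Levels fall smoothly from 10619 FPKM at rank 1 to 501 FPKM at rank 175, most crosses lie at or just under their dots, and a few genes have wide control ranges.

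The threshold cut through an even slope of levels. The last genes inside had control means of 502 and 501 FPKM, and the first outside had 499.9 and 499.7 FPKM. In single libraries 171, 172 and 156 of the 175 genes reached 500 FPKM in controls 1, 2 and 3, and 166, 153 and 159 in air-dried 1, 2 and 3. All 6 libraries reached it in 144 genes. Of the 275 identifiers whose controls averaged 500 FPKM or more, 100 were set aside by the other conditions. These were 95 loci without an annotated transcript, 78 of them under 300 bp, and 5 annotated genes under 300 bp.

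A pair of genes stood above all others. Rank 1, on the plus strand of chromosome 10 (18258521 to 18261722), measured 10935, 11383 and 9540 FPKM in the controls and 9151, 8311 and 7292 FPKM after drying. All of its air-dried values lay under all of its control values, but the log2 difference of −0.37 did not pass the test (SE 0.22, limma with Benjamini-Hochberg adjusted p = 0.508). Rank 2, on the plus strand of chromosome 11 (2703083 to 2704086), is listed with a single annotated transcript. Its controls stood at 10439, 10875 and 9178 FPKM, and its air-dried libraries at 10191, 9838 and 7992 FPKM. Its groups overlapped, and it was the highest of the annotated genes in the air-dried mean.

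Ranks 3 and 4 showed the library pattern plainly. Rank 3, on the minus strand of chromosome 4 (8433533 to 8435079), measured 7587, 8012 and 4769 FPKM in the controls and 7010, 4466 and 4245 FPKM after drying. Rank 4, on the minus strand of chromosome 6 (25054879 to 25055671), measured 8831, 7149 and 2854 FPKM and then 8095, 2579 and 3365 FPKM. In both genes control 3 and air-dried 2 and 3 were low, and the other 3 libraries were high. Rank 5, on the plus strand of chromosome 5 (125634 to 131868), went further, with 10375, 6643 and 931 FPKM in the controls and 9679, 1072 and 1539 FPKM after drying. Its highest library stood 11.1-fold over its lowest, the widest range of the 175 genes.

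Rank 8 ran the opposite way. On chromosome 3 (1333975 to 1343044, plus strand), its values were 4668, 4301 and 6843 FPKM in the controls and 4019, 6441 and 6400 FPKM after drying. Control 3 stood 1.53-fold over the mean of controls 1 and 2, the highest such ratio in the list. Most of this lay in a transcript assembled from reads, of 7630 bp, with 78.8% of the control level. Controls 1, 2 and 3 listed 3487, 3200 and 5767 FPKM for that transcript. Air-dried 1, 2 and 3 listed 2992, 5356 and 5357 FPKM. Annotated transcripts held 21.2% of the control level. The main annotated one ran only from 964 to 1134 FPKM over the 6 libraries, and the other from 39.9 to 79.0 FPKM. Rank 7, on the minus strand of chromosome 19 (10697156 to 10699184), was steadier, with 5900, 5769 and 4761 FPKM and then 6200, 4900 and 4869 FPKM.

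The remaining high genes repeated these shapes. Rank 6 (chromosome 5, 24197287 to 24201358) ran from 4559 to 6785 FPKM over the 6 libraries. Rank 9, on the same chromosome (24629243 to 24630061), measured 5625, 5413 and 3702 FPKM in the controls and 4167, 2628 and 2923 FPKM after drying. Rank 10 (chromosome 14, 13248183 to 13249779) had a control SD of only 6.34% of its mean. Ranks 11 and 12 reached 7708 and 6258 FPKM in air-dried 1 but 3090 and 3136 FPKM in air-dried 2. The order of the top genes changed little between groups. Of the 20 highest in the control mean, 19 were among the 20 highest annotated genes of that span in the air-dried mean, and of the 10 highest 8 were.

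Across the list, the split of the libraries was wide. In 87 genes (49.7%) control 3 and air-dried 2 and 3 all lay under the other 3 libraries, where 13.5% of all tested genes had that order. The opposite order was seen in 13 genes (7.43%), against 12.4% of all tested genes. Control 3 was the lowest control in 116 genes (66.3%, against 36.0% of tested genes) and the highest in 33. Air-dried 1 was the highest air-dried library in 122 genes and the lowest in 39, and the matching shares of all tested genes are not given here. No label names what sets these libraries apart.

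The size of the split differed from gene to gene. Control 3 stood at a median of 0.856 of the mean of controls 1 and 2, with a range of 0.109 to 1.53. Air-dried 1 stood at a median of 1.12 times the mean of air-dried 2 and 3, with a range of 0.232 to 7.41. Genes low in control 3 were the ones high in air-dried 1, with a rank correlation of −0.87 over the 175 genes, although the 2 ratios share no library. Control 3 was under 50% of controls 1 and 2 in 14 genes (8.00%, against 4.85% of tested genes). Air-dried 1 was over 2 times air-dried 2 and 3 in 14, and 12 genes were in both sets. The share of tested genes with that air-dried 1 ratio is not given here.

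**Figure D2:**
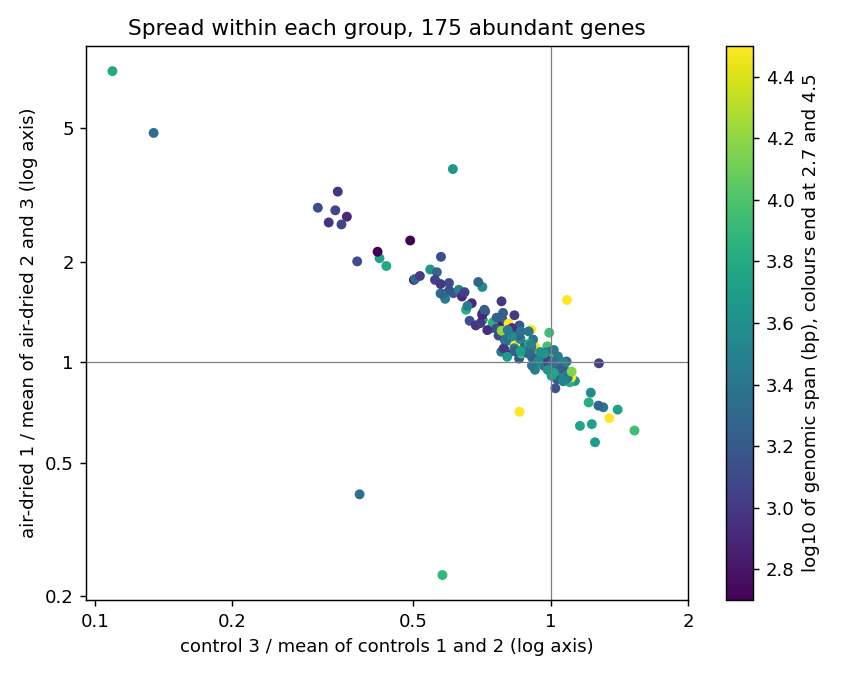
Each of the 175 genes placed by the ratio of control 3 to the mean of controls 1 and 2 (x, log axis) and of air-dried 1 to the mean of air-dried 2 and 3 (y, log axis), coloured by the log10 of genomic span. Points run along a falling diagonal (rank correlation −0.87), from rank 5 at 0.109 and 7.41 to rank 8 at 1.53 and 0.626.

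Shorter genes carried more of the split. Genomic span, introns included, correlated at 0.44 by rank with the control 3 ratio and at −0.41 with the air-dried 1 ratio over the 175 genes. In the 22 genes under 1000 bp the median control 3 ratio was 0.704 and the median air-dried 1 ratio was 1.39, and control 3 was the lowest control in all 22. In the 24 genes from 1000 to 1500 bp the medians were 0.764 and 1.34. In the 44 genes from 1500 to 2500 bp they were 0.853 and 1.11. In the 37 genes from 2500 to 4000 bp they were 0.931 and 1.03, and in the 48 longer genes 0.956 and 1.05. The same order by span was present over all tested genes from 300 bp, whose median control 3 ratios in these 5 classes were 0.776, 0.910, 0.950, 0.992 and 1.05. In each class the ratio of the abundant genes was the lower. The list is shorter than the genes tested, with a median span of 2333 bp against 3521 bp.

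**Figure D3:**
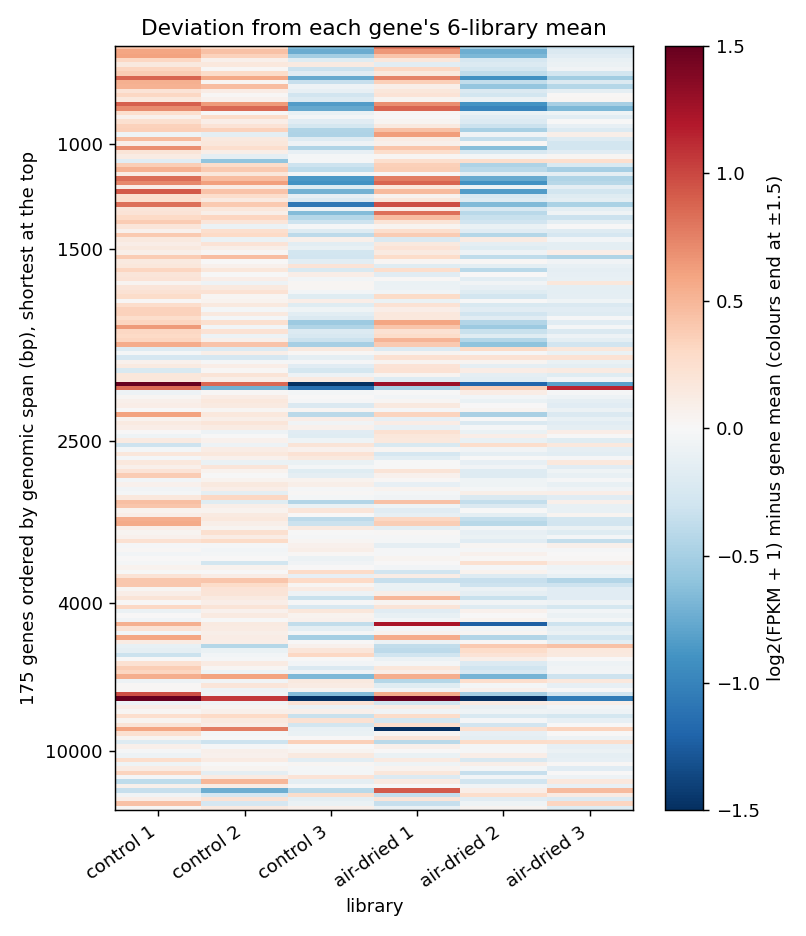
Each row is 1 of the 175 genes, ordered by genomic span with the shortest at the top, and each column is a library; colour is the log2(FPKM + 1) value minus the gene's mean over the 6 libraries. Controls 1 and 2 and air-dried 1 are mostly red and control 3 and air-dried 2 and 3 mostly blue, most clearly among the 46 genes under 1500 bp.

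Some genes of the list were steady, and the share of such genes over all tested genes is not given here. Over all 6 libraries 45 genes stayed within 1.25-fold, 28 spread over at least 2-fold and 6 over at least 4-fold. The SD of the controls was under 10% of the mean in 74 genes. In the air-dried libraries the median SD was 11.3% of the mean. The narrowest range was that of rank 140 (chromosome 9, 7775637 to 7778954, minus strand), which measured 636, 640 and 658 FPKM in the controls and 642, 682 and 655 FPKM after drying. Rank 17, on the plus strand of chromosome 15 (8514429 to 8517940), held 3917, 3920 and 3799 FPKM and then 3679, 3733 and 3613 FPKM. All of its air-dried values were the lower ones, and the air-dried minus control difference was −5.25% of the control mean.

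Air-drying set almost none of these genes apart by the test. All 175 passed the filter on low values (at least 1 FPKM in at least 3 libraries, 22559 genes). In the limma fit of log2(FPKM + 1) over those genes, 0 of the 175 were higher and 1 was lower at a Benjamini-Hochberg adjusted p under 0.05. Over all tested genes 3.61% were higher and 0.696% lower, and 1 of 175 is 0.571%. At an unadjusted p under 0.05, 4 of the 175 were higher (2.29%) and 4 lower (2.29%), against 10.5% and 5.99% of all tested genes. Because high control values chose the list, these counts are a description of it.

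Most differences had narrow intervals in the fit by group alone. That fit takes the libraries as independent and leaves out their split, so the intervals do not bound an effect of drying. In 148 of the 175 genes the 95% interval of the log2 difference lay inside a 2-fold change either way, and in 27 it reached past 2-fold. Not all of the 27 had wide intervals. That of rank 55, from −1.02 to −0.49, was narrow but lay away from 0. The median standard error was 0.16 on the log2 scale, against 0.12 for all tested genes. The log2 differences ran from −0.83 to 0.99, 0 genes reached 2-fold on that scale, and 8 differed by at least 0.5 log2 units. By the plain group means, rank 83 was 103% higher after drying.

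Most differences were small and below 0, to an extent that depended on the libraries. The median log2 difference was −0.12 over the 175 genes, against 0.0037 over all tested genes, and 143 of the 175 (81.7%) were below 0, against 49.2% of tested genes. Choosing on high control values favours this sign. The median was −0.11 for the 178 genes chosen on the air-dried mean and −0.12 for the 173 chosen on the mean of all 6 libraries. Of the 178, 168 were also among the 175, so that median could differ little. It also depended on the library scale: after quantile normalization it was 0.015. With a term for the split of the libraries it was −0.023. Leaving out 1 library gave values from −0.19, without control 3, to −0.051, without control 1. By level it was −0.11 from 500 to 1000 FPKM, −0.12 from 1000 to 2000, −0.14 from 2000 to 5000 and −0.27 in the 8 genes at 5000 or more. These classes were cut on the control mean, which is also part of the difference, so lower values in higher classes are favoured. The 8 genes include ranks 3, 4 and 5, which followed the split of the libraries.

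**Figure D4:**
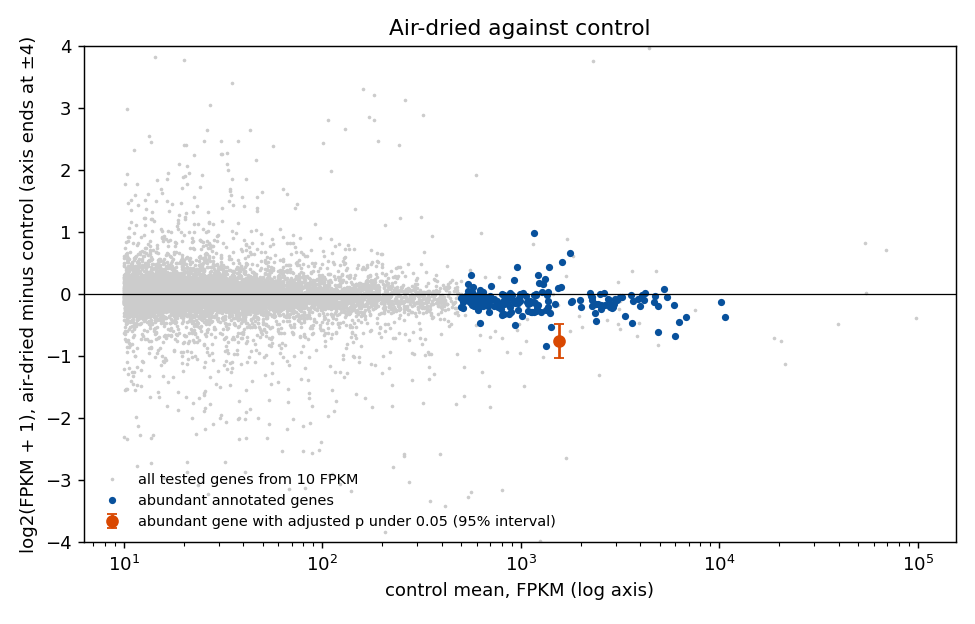
Air-dried minus control difference in log2(FPKM + 1) against the control mean (FPKM, log axis), with all tested genes from 10 FPKM in grey and the 175 abundant genes in blue; the vertical axis ends at ±4. Blue points cluster just under 0 (median −0.12), and the orange point with its 95% interval of −1.02 to −0.49 is the only abundant gene with an adjusted p under 0.05, at rank 55.

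The 1 gene that passed was POPTR_0005s08050.r1, rank 55, on the minus strand of chromosome 5 (5540200 to 5543793). Controls 1, 2 and 3 gave 1583, 1596 and 1473 FPKM, and air-dried 1, 2 and 3 gave 937, 936 and 881 FPKM. Every air-dried value was under every control value, and the control 3 value stayed close to the other controls. The mean fell from 1551 ± 67.7 to 918 ± 32.0 FPKM (SD, n = 3). On the log2 scale the difference was −0.76 (SE 0.11), with a Benjamini-Hochberg adjusted p of 0.0175 in limma. An annotated transcript spanning 3531 bp carried 97.8% of its control level. The call was lost under 7 of 18 other fits, and without air-dried 3 the adjusted p was 0.117 (limma). Its log2 difference stayed between −0.81 and −0.73 throughout.

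Other genes had separate groups without passing. In 24 of the 175 genes (13.7%) all air-dried values lay under all control values, against 9.18% of tested genes, and in 8 (4.57%) all lay over them, against 13.4%. Rank 21, on the minus strand of chromosome 2 (19365668 to 19368274), measured 3313, 3280 and 3409 FPKM in the controls and 2465, 2690 and 2637 FPKM after drying. Its log2 difference was −0.36 (SE 0.14, limma adjusted p = 0.271). Rank 19, on the plus strand of chromosome 1 (33205142 to 33208765), measured 4056, 3708 and 3127 FPKM and then 2876, 2479 and 2473 FPKM, with a log2 difference of −0.47 (SE 0.17, limma adjusted p = 0.249).

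Among those with higher air-dried values, rank 100 was the most even within groups. On chromosome 5 (23773213 to 23775206, plus strand), its values were 926, 926 and 1003 FPKM in the controls and 1290, 1280 and 1283 FPKM after drying. The log2 difference was 0.43 (SE 0.11, limma adjusted p = 0.0960). Rank 53, on the plus strand of chromosome 1 (40733056 to 40734123), measured 1701, 1265 and 1891 FPKM and then 2274, 2294 and 2283 FPKM (log2 difference 0.52, limma adjusted p = 0.235). Rank 60, on chromosome 9 (4235331 to 4236304), measured 1532, 1449 and 1162 FPKM and then 2471, 1540 and 1706 FPKM. An assembled transcript held 98.9% of the control level of rank 60, and annotated transcripts held 0.862%. None of these 3 passed the threshold.

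Rank 83 had the largest positive difference in the list and did not pass either. On chromosome 14 (17519728 to 17672115, minus strand), its values were 1278, 981 and 1226 FPKM in the controls and 3073, 1745 and 2257 FPKM after drying. The groups were separate, with a log2 difference of 0.99 (SE 0.24, limma adjusted p = 0.0959). Its span of 152388 bp is that of an assembled transcript and overlaps 11 other genes. In control 3 an annotated transcript of 1908 bp at the same locus was listed at 690 FPKM and the assembled one at 509 FPKM, whereas in the other 5 libraries the annotated one was near 0.

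**Figure D5:**
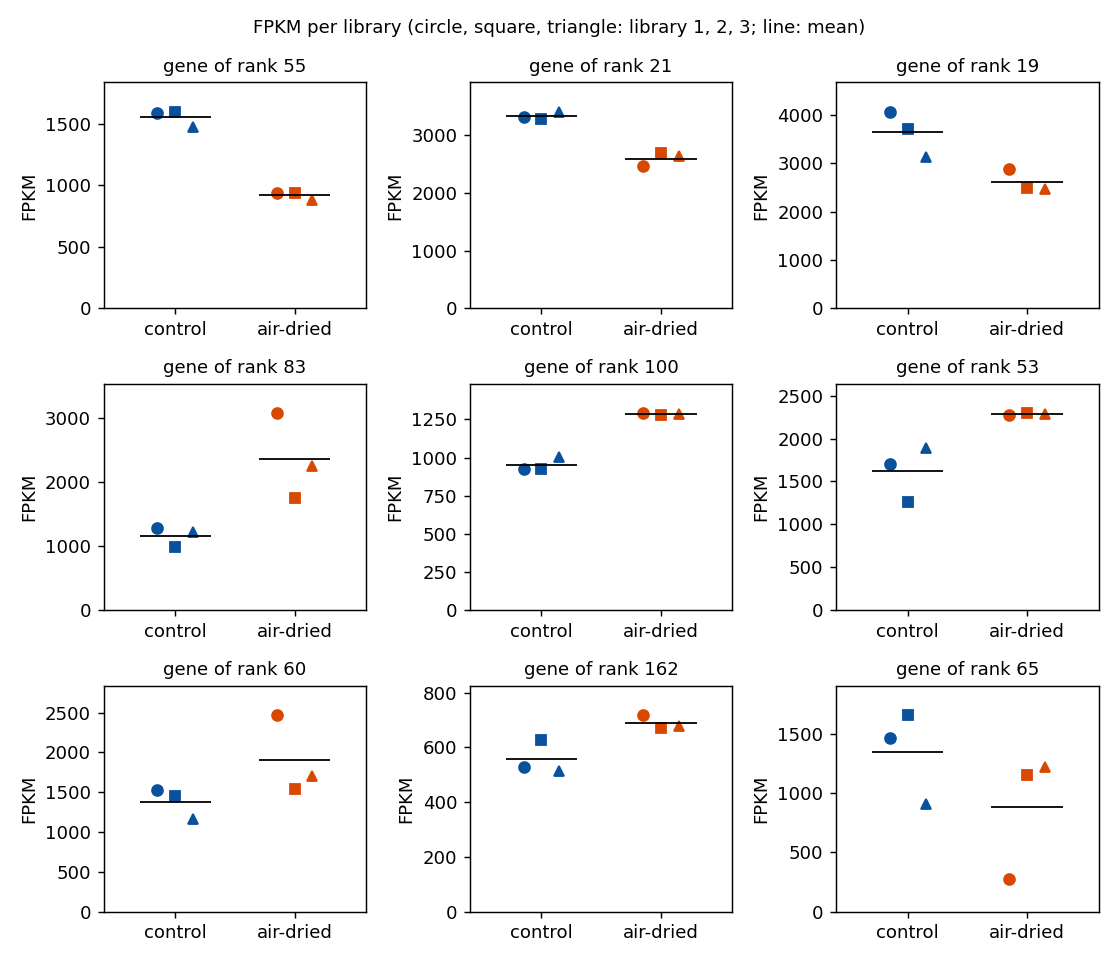
FPKM in each library for 9 of the abundant genes, from 0 on each vertical axis, with controls in blue, air-dried libraries in orange and a line at each mean (n = 3). Rank 55 drops from 1551 to 918 FPKM with no overlap, ranks 21 and 19 are lower and ranks 83, 100, 53, 60 and 162 higher without overlap, and rank 65 owes its low air-dried mean to air-dried 1 (276 FPKM).

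Leaving out control 3 and air-dried 1 gave another count. In the remaining 4 libraries 0 of the 175 genes were higher and 14 (8.00%) were lower in limma, against 3.48% and 2.41% of tested genes, with 9 and 57 at an unadjusted p under 0.05. These 14 had a median control 3 ratio of 0.352, and in 9 of them control 3 was under 50% of controls 1 and 2. Only rank 55 among them had separate groups in all 6 libraries. Rank 5 had a log2 difference of −2.69 there (limma adjusted p = 0.0230) and of −0.67 in all 6 libraries (limma adjusted p = 0.850). Rank 102, on chromosome 1 (35851249 to 35853451, minus strand), likewise had −2.20 (limma adjusted p = 0.0255) and −0.49 (limma adjusted p = 0.875). Its controls stood at 1605, 1015 and 176 FPKM and its air-dried libraries at 1352, 243 and 315 FPKM, so its low libraries include a control. In those 4 libraries treatment and the split cannot be told apart. With all 6 libraries and a term for the split, 2 of the 175 were higher and rank 55 alone was lower. The 2 were ranks 60 and 100 (log2 differences 0.60 and 0.42, limma adjusted p = 0.0387 and 0.0465). Over all tested genes that fit called 4.35% higher and 1.13% lower. The split was read from these same values and no label names it, so its calls are a description. In the fit by group alone, ranks 60 and 100 had limma adjusted p = 0.417 and 0.0960.

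Genes entered and left the list when the air-dried mean was used. Both means chose 168 genes, the control mean alone 7 and the air-dried mean alone 10. The 7 ranked from 146 to 175, and their air-dried means lay between 432 and 499.9 FPKM. Of the 10, the highest, on the minus strand of chromosome 13 (2390896 to 2402116), measured 69.6, 79.5 and 791 FPKM in the controls and 82.9, 737 and 958 FPKM after drying, which again follows the split. Another, on chromosome 14 (11741497 to 11743290, plus strand), followed the groups, with 383, 295 and 296 FPKM in the controls and 543, 503 and 497 FPKM after drying (limma adjusted p = 0.0506). The other, on chromosome 6 (10291236 to 10292911, minus strand), measured 406, 438 and 434 FPKM and then 578, 586 and 578 FPKM (limma adjusted p = 0.0505). Neither passed, both were separate between groups, and both were picked for their air-dried level.

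Most of the signal came from annotated transcripts. The 175 genes are listed with 680 transcripts, 283 annotated and 397 assembled from reads. Annotated transcripts held 74.2% of the genes' control FPKM and 73.9% of their FPKM after drying. The most abundant transcript of the controls was annotated in 125 genes and assembled in 50. A single transcript was listed in 40 genes (22.9%, against 26.1% of tested genes), and the median was 3, with up to 20 at rank 62.

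In 23 genes annotated transcripts made up under 10% of the control level, and assembled ones held the rest. An assembled transcript could have the same ends as an annotated one, as at rank 79 (chromosome 8, 14769841 to 14773649). At rank 5 annotated transcripts held 0.192%. The level there came from 2 assembled transcripts of 6137 and 6116 bp, for which controls 1, 2 and 3 listed 9759, 3311 and 794 FPKM and then 591, 3293 and 60.5 FPKM. At rank 65, on chromosome 13 (4273477 to 4281171, minus strand), an assembled transcript of 7695 bp held 99.9%. That gene measured 1468, 1660 and 905 FPKM in the controls and 276, 1154 and 1225 FPKM after drying, and its low library was air-dried 1 alone.

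Very short transcripts held most of the control level of 4 genes. At rank 52, on chromosome 16 (12410806 to 12413020, plus strand), an assembled transcript of 108 bp held 99.9% of the control level. The gene measured 3340, 1128 and 851 FPKM in the controls and 1313, 2394 and 4112 FPKM after drying. Its groups overlapped, and here control 1 and air-dried 3 were the high libraries. At rank 63 an annotated transcript of 132 bp measured 1397, 982 and 647 FPKM and then 2518, 240 and 666 FPKM. The longer assembled transcript of the same gene, 4484 bp, ran only from 288 to 392 FPKM over the 6 libraries. At rank 58 a transcript of 276 bp held 84.1% to 93.2% of the level over the 6 libraries. At rank 12 one of 156 bp held 55.7% of the control mean, but 44.3% in control 2, 44.5% in air-dried 2 and 44.6% in air-dried 3. How many fragments lie behind these short transcripts is unknown.

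The main transcript changed between libraries in some genes, most often along the split of the libraries. Of 135 genes with several transcripts, 100 had the same most abundant transcript in all 6 libraries and 35 (25.9%, against 39.3% of tested genes with several) did not. In 13 of the 35 (37.1%, against 8.30% of the tested genes that changed), control 3 and air-dried 2 and 3 shared one main transcript and the other 3 libraries another. The other 22 genes divided the libraries in other ways. None of the 35 had one main transcript in the controls and another in the air-dried libraries, a count of 0 that is near the share of 1.06% among the tested genes that changed. Rank 17 was among the 13, and its summed level was among the steadiest of the list.

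Positions were spread over the genome. All 19 chromosomes held at least 2 of the genes, with 27 on chromosome 1 and 21 on chromosome 5, and 2 lay on unplaced scaffolds. These were 1.05% and 1.36% of the tested genes of chromosomes 1 and 5. The plus strand held 90 and the minus strand 85. Spans ran from 505 to 317503 bp, and 5 genes spanned over 100000 bp. Identifiers that join several annotated loci numbered 16, of which 2 joined 3 loci, and the level of such a gene is a sum over neighbours. Another gene of the files overlapped 40 of the 175 (22.9%), and the library kit does not mark the strand.

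Some abundant genes lay beside each other. Within 10000 bp there were 8 pairs involving 12 genes, and 5 of these pairs overlapped. Ranks 11, 67 and 81 followed each other on the plus strand of chromosome 10 between 15106443 and 15131304, inside the span of rank 104 (15101038 to 15142213), which joins 2 annotated loci. Ranks 11 and 67 were both highest in air-dried 1, at 7708 and 2478 FPKM, and both lowest in control 3, at 2806 and 890 FPKM. On chromosome 15, ranks 113 and 17 lay 4275 bp apart on the plus strand, and rank 113 ran from 784 to 911 FPKM over the 6 libraries.

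Some abundant genes overlapped on opposite strands, which limits the levels where they share a stretch. Rank 93 (chromosome 5, 24199530 to 24200668), an assembled transcript on the plus strand, lay wholly inside rank 6 on the minus strand. Annotated transcripts held 0% of its control level. It measured 18.3%, 18.0% and 14.3% of rank 6 in the controls and 17.7%, 13.6% and 13.4% after drying. The share was lower in control 3 and air-dried 2 and 3, as were the levels of both genes. Ranks 24 and 72 overlapped likewise on chromosome 4 (838421 to 867990, plus, and 837724 to 839353, minus). Reads from the stretch that such a pair shares cannot be told apart in these libraries. The main transcript of rank 6 (24197287 to 24198656, 84.1% of its control level) ended before rank 93 began, so most of the rank 6 level lay outside that overlap.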

How the data were processed

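Per the labels' protocols, poly(A) RNA of leaves was made into TruSeq libraries and read as 100 bp paired ends. The deposited values are FPKM per transcript, per the file headers, with no scaling between libraries stated. FastQC, TopHat and Cufflinks are named in the submitters' processing notes, without versions. Neither the genome build nor the annotation is given in the sources used here. The tables list 112919 transcripts, 45773 annotated. FPKM was summed per gene identifier. The 22559 genes that reached 1 FPKM in 3 or more of the 6 libraries were fitted with limma 3.58.1 in R 4.3.3 on log2(FPKM + 1), which understates changes of low genes, with group as the sole term, an intensity trend and Benjamini-Hochberg adjustment over all genes (threshold 0.05, 2-sided). The fit was tested on simulated data with independent noise in each library, which left out the split of the libraries. Depth is unknown, so no counting interval is given.

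The abundant genes, gene lists and tests were chosen with earlier results of these data known. Named genes are the highest 12 in control mean, called genes, genes with an air-dried value under 50% of the lowest control or next to the threshold, and genes singled out by group separation, library range, transcripts or position after their values were seen. Lists by gene name (photosynthesis, ribosome, cell type markers and others) could not be filled (0 genes named), so none was described. With no name table, an identifier is printed only for the gene that passed. No sequence was used.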

Additional observations from a re-analysis of the deposited data

How the results depend on the processing

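The counts of 0 higher and 1 lower among the 175 genes, and the median log2 difference of −0.12, were recomputed under 24 alternatives in limma. The count higher was 2 with a term for the split of the libraries (control 3 with air-dried 2 and 3, ranks 60 and 100, limma adjusted p = 0.0387 and 0.0465), a split read from the data, and 0 under the other 23. The count lower was 0 with quantile normalization and 0 with the replicate block, 14 without control 3 and air-dried 1, and 3 among the 428 genes from 250 FPKM. Leaving out 1 library gave 0 to 1 lower: 1 without control 3, and 0 when any of the other 5 was left out. The median log2 difference stayed between −0.26 and 0.015, moved by less than the pooled within-group SD of 0.18 of the library medians, and lay above 0 with quantile normalization alone. That SD is larger than the median difference of −0.12 and takes in the split of the libraries, so staying under it does not show stability. Without control 1 the median difference was −0.051 and without air-dried 2 −0.053, against −0.19 without control 3 and −0.19 without air-dried 1. Rescaling to a common sum gave −0.17, where all tested genes had −0.042.

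Rank 5 changed sign to 1.30 on annotated transcripts alone, to 0.34 with the term for the split and to 0.019 without control 1, and leaving out 1 library at a time gave it −1.72 to 0.019. Rank 58 changed sign to 0.011 with that term, and rank 65 to 0.37 on annotated transcripts alone. The causes were not tested. Transcripts of at least 300 bp, and genes of 1 annotated locus free of overlap, were alternatives chosen after seeing the data, and both gave 0 higher and 1 lower. Deviations of libraries with the same replicate number correlated at 0.24, −0.15 and 0.12, so the numbers are not shown to pair the samples; the block ended the call of rank 55 (limma adjusted p = 0.0704). Depth is unknown, so how far counting error widens a value cannot be given.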
